A study of Mus musculus with 24 samples.

Results

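Expression of 38 genes of glycolysis and of the response to low oxygen was examined in differentiated mouse embryonic stem (mES) cells with and without REV-ERBα and REV-ERBβ, a pair of nuclear receptors. The genes were taken from a list of symbols by their known roles, with no threshold on their measured values. This list and the further gene lists below were, however, chosen with earlier results of these data known. Counts of genes called in them are therefore descriptions. They comprise 22 glycolytic genes, which encode glucose and lactate transporters, glycolytic enzymes and regulators of the pathway, and 16 other genes known to respond to hypoxia. All 38 symbols were found among the 33079 rows of the deposited table, and all 38 were among the 15112 genes that passed the filter on low values and entered the tests.

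Glycolysis splits glucose into pyruvate, which is either oxidised in mitochondria or reduced to lactate and exported. When oxygen is short, the hypoxia-inducible factors (HIFs), pairs of an oxygen-labile alpha subunit and the stable subunit ARNT, raise the transcription of most of these genes and of genes for blood vessel growth, acid-base balance, collagen processing and mitochondrial turnover. With oxygen, prolyl hydroxylases of the EGLN family mark the alpha subunits for degradation. REV-ERBα and REV-ERBβ, encoded by Nr1d1 and Nr1d2, are haem-binding repressors of transcription that belong to the circadian clock and also act on metabolic genes.

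The control cells, called WT here, were mES cells with a luciferase knock-in at Per2, and the KO cells carry the same knock-in with a CRISPR/Cas9 deletion of 1 exon in each of the genes for REV-ERBα and REV-ERBβ. Both were formed into embryoid bodies, which were then plated on gelatin-coated wells and kept in culture up to differentiation day 28. The cells were then given 100 nM dexamethasone, a glucocorticoid that sets the clocks of cultured cells to a common phase. Cells were collected every 4 h from 12 to 56 h, giving 12 libraries per genotype. Each held the pooled RNA of cells differentiated from 3 embryoid bodies. There is 1 library per genotype and time point, so the 12 time points stand in as replicates, the spread (SD) holds change over time as well as noise between libraries, and the p-values measure the spread between these libraries only. All KO libraries come from the mutant line and all WT libraries from the control line, so genotype and cell line cannot be told apart.

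The values are RPKM, fragments on the exons of a gene divided by the length of these exons and by the library size. Each WT library held 6426254 to 10287969 fragments on exons and each KO library 6183500.5 to 9868080, and the least expressed of the 38 genes, Pfkfb4, had 50 to 105 fragments per library. Gene-level values cannot show the deletion, since only 1 exon of each targeted gene is missing. Nr1d1 was at 3.58 to 7.48 RPKM in WT and 2.48 to 9.74 RPKM in KO, and Nr1d2 at 0.895 to 3.02 and 1.38 to 5.27 RPKM, so these values do not check the labels. Markers of pluripotent cells were low on average, with a mean of 0.924 RPKM for Pou5f1 and 0.198 RPKM for Nanog in WT. Pou5f1 varied between libraries, with an SD of 1.54 RPKM in WT and at most 4.73 RPKM in any library. Markers of mesenchyme, heart muscle, epithelium, endoderm and leukocytes were all present. The cultures are therefore mixtures, and in such bulk samples a change in the number of cells of a type cannot be told apart from a change in RNA per cell.

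Most of the 38 genes were expressed at a higher level in KO cells. By limma on log2(RPKM + 0.1), with Benjamini-Hochberg adjustment over the 15112 genes tested and a threshold of 0.05, 28 of the 38 were higher in KO, 2 were lower and 8 were not called. Over all genes tested, 11.2% were higher in KO and 14.7% were lower. The median difference of the 38 genes was 0.22 on the log2 scale, against -0.013 for all genes. Among the glycolytic genes 15 of 22 were higher, 2 were lower and 5 were not called, with a median of 0.23, and among the other hypoxia-responsive genes 13 of 16 were higher, none was lower and 3 were not called, with a median of 0.20. The differences were moderate. The largest, that of Slc2a3, was 0.49 on the log2 scale, and that of Ak4, the largest outside the glycolytic genes, was 0.40.

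**Figure D1:**
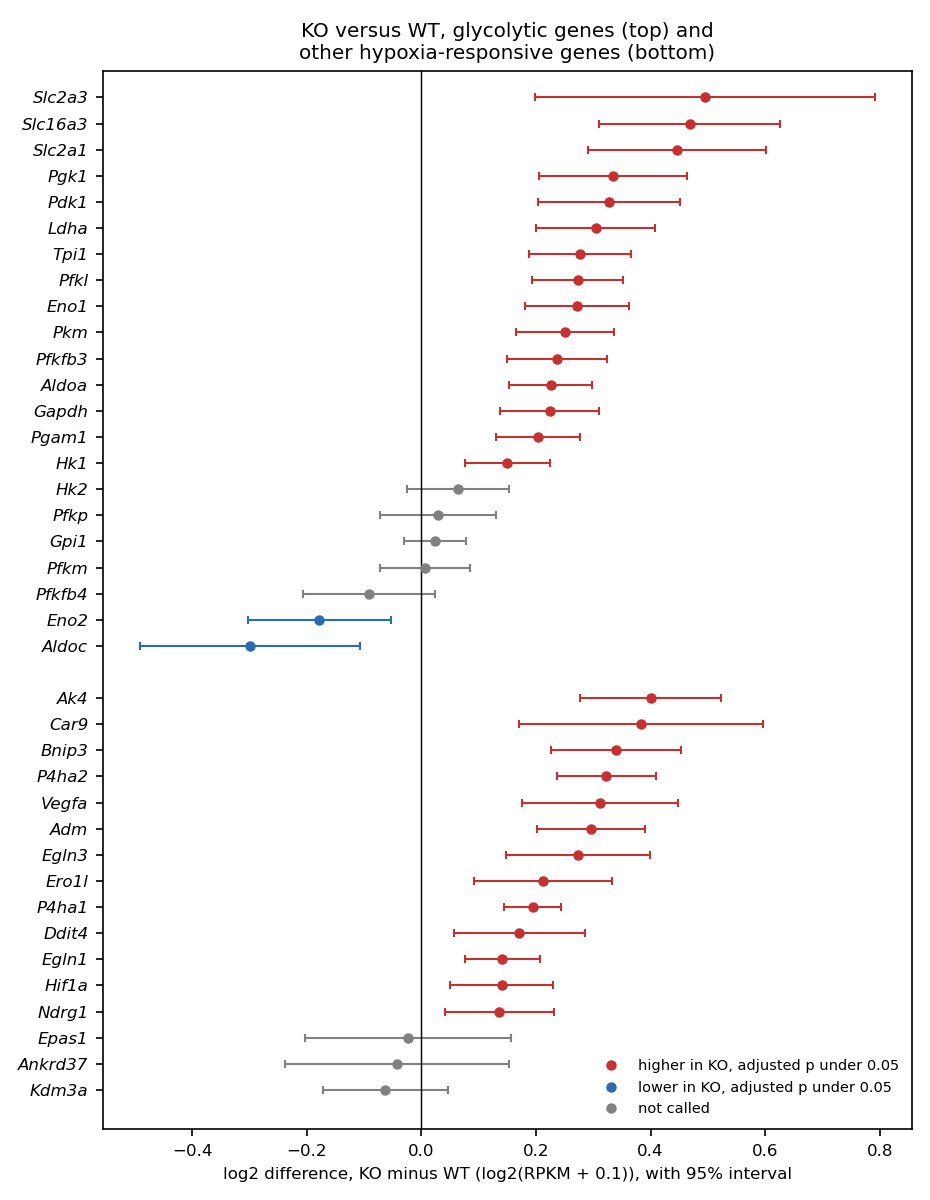
Difference between KO and WT for each of the 38 genes on the log2(RPKM + 0.1) scale, with points for the difference of the means over 12 libraries per genotype and bars for the 95% confidence interval, glycolytic genes above and other hypoxia-responsive genes below. Red points are higher and blue points lower in KO at an adjusted p under 0.05, and all but 10 of the 38 points are red, with Aldoc and Eno2 as the only blue ones.

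The difference was present through most of the time course. Compared at the same time point, KO was above WT at 12 of 12 time points for 10 of the 38 genes, which was so for 2.65% of all genes tested, and at 11 or 12 time points for 22 genes, against 7.5% of all genes. In 1 gene, P4ha1, every KO library lay above every WT library, a separation found in that direction in 0.199% of all genes. The reverse was found in 0.41% of all genes and in 0 members. The summed level of the 22 glycolytic genes ran from 1508 to 1939.7 RPKM in WT and from 1850.4 to 2209 RPKM in KO, with means of 1700.2 and 2026 RPKM. The summed level of the 16 other genes ran from 309 to 374 RPKM in WT and from 366 to 422 RPKM in KO. Both sums overlapped between the genotypes, yet KO was the higher of the pair at 12 of 12 time points for each, by 1.19-fold and 1.16-fold over the means. At 56 h the WT and KO sums lay close together, and at 20 h the glycolytic sum of WT was at its highest. Many members called higher in KO were above KO in the WT library of 56 h. For Aldoa, Pgk1, Eno1, Pkm, Ldha and Bnip3 this was the only 1 of the 12 time points without KO higher. Others, such as Slc2a1 and P4ha1, were still higher in KO at 56 h.

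**Figure D2:**
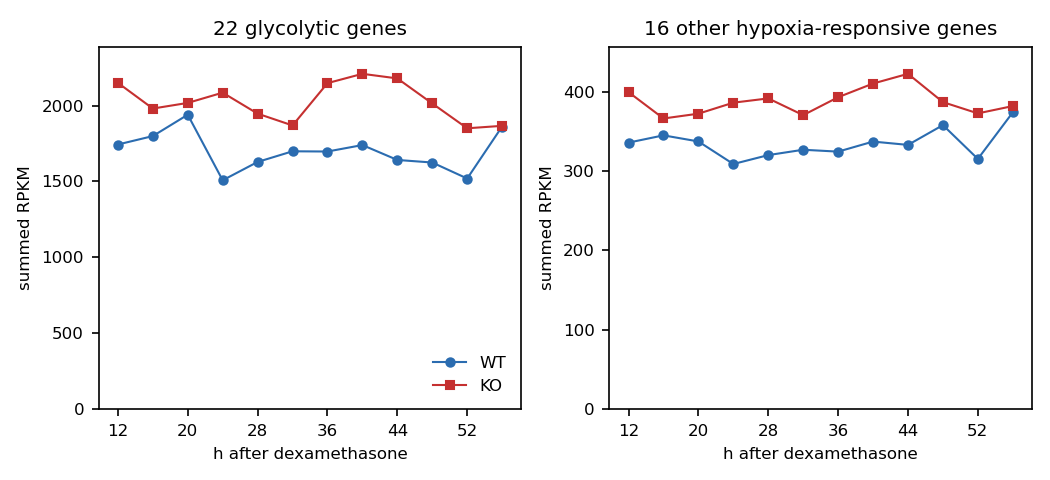
Summed RPKM of the 22 glycolytic genes and of the 16 other hypoxia-responsive genes by hours after dexamethasone, with 1 point per library, WT in blue and KO in red. KO was above WT at each of the 12 time points in both panels, and the lines came closest at 56 h.

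Abundant genes in general were more often higher in KO, and several members are abundant. Among the 253 genes with a mean of at least 100 RPKM, 7 of them members, 39.9% were higher and 7.11% lower in KO, with a median difference of 0.095 on the log2 scale. Among the 3593 genes with a mean of at least 10 RPKM, 27 of them members, 16.4% were higher and 11.3% lower. The 7 members in the first group, Aldoa, Tpi1, Gapdh, Pgk1, Eno1, Pkm and Ldha, were all higher in KO, with differences between 0.22 and 0.33. Quantile normalization, which gives every library the same distribution of values, kept these 7 calls and made 5 of the differences over 1.5 times smaller. They were then 0.094 for Aldoa (adjusted p = 0.0181), 0.13 for Gapdh, 0.15 for Pkm, 0.16 for Tpi1 and 0.18 for Eno1.

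To show what stands upstream of these genes, the 250 bases before the transcription start were read from the RefSeq promoters of build GRCm38.p6, which hold 35 of the 38 genes. Epas1, Ndrg1 and Slc2a3 have no entry. The start of the RefSeq entry was that of the deposited gene for 28 of the 35 and another one for 7. Both strands were searched for ACGTG and GCGTG, the cores of the element that HIFs bind, for CACGTG, the E-box bound by clock factors, which holds an ACGTG on each strand, and for AGGTCA, the half-site bound by REV-ERBs. The 5 members with the largest difference between KO and WT that have an entry are shown, from 5′ to 3′ on the strand of the gene and ending at the base before the start, with matches to a HIF core or an E-box on either strand in capitals. They are Slc16a3 at chr11:120948817-120949066 on the plus strand, Slc2a1 at chr4:119108495-119108744 on the plus strand, Ak4 at chr4:101419039-101419288 on the plus strand, Car9 at chr4:43506776-43507025 on the plus strand and Bnip3 at chr7:138909507-138909756 on the minus strand.
Slc16a3: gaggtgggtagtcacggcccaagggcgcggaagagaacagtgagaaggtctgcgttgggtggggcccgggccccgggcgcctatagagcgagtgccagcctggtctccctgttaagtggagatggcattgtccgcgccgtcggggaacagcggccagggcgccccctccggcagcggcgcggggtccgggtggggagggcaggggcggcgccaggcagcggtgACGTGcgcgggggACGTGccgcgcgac
Slc2a1: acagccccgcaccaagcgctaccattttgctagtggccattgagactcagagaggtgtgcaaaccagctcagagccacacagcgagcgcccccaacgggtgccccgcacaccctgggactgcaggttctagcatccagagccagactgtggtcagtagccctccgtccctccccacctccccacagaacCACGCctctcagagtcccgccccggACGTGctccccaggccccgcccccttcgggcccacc
Ak4: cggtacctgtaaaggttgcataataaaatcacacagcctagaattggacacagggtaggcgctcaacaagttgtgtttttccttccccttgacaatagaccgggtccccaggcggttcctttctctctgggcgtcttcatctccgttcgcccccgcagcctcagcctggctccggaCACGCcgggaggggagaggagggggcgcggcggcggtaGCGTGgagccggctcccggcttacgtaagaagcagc
Car9: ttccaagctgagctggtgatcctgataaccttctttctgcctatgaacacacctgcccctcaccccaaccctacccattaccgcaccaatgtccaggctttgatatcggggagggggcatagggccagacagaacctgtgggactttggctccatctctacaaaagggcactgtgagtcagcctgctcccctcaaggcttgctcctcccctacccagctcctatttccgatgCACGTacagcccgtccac
Bnip3: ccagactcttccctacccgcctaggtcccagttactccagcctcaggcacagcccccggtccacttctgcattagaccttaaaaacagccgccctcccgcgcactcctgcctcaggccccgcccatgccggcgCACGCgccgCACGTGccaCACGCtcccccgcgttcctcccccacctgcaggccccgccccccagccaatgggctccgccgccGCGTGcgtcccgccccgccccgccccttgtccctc
The start used for Slc16a3 lies 583 bases inside the deposited gene, and those of the other 4 are the deposited ones. Slc16a3 holds 2 ACGTG, whose first bases lie 27 and 14 bases before the start. Slc2a1 holds 1 ACGTG and 1 GCGTG, and Ak4 holds 2 GCGTG. Car9 holds 1 ACGTG, on the opposite strand, 18 to 14 bases before the start. Bnip3 has the densest window of the 5, with 1 CACGTG at 108 to 103 bases before the start and 3 GCGTG. None of the 5 windows held AGGTCA.

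Over the 35 windows, ACGTG was in 18 (51.4%), compared with 21.0% of the 11075 tested genes that have an entry, and GCGTG in 21 (60.0%), compared with 44.1%. ACGTG was in 8 of the 21 windows of glycolytic genes and in 10 of the 14 windows of other hypoxia-responsive genes. CACGTG was in 3 of the 35 (8.57%, against 8.21% of all) and AGGTCA in 2 (5.71%, against 10.9%), those of Aldoa and Hif1a. The start used for Hif1a lies 6543 bases from that of the deposited gene, so its window is not next to the start of the measured row. Split by call, ACGTG was in 15 of the 26 members that were higher in KO and have a window, and in 3 of the other 9. GCGTG was in 16 of these 26 (61.5%) and in 5 of the other 9 (55.6%). At least 2 ACGTG were in 19.2% and 22.2%. The split by call also mixes glycolytic genes with other hypoxia-responsive genes, which held ACGTG more often and were more often higher in KO. The members were listed for their known roles, and HIFs raise most of them. A surplus of HIF cores over all genes may thus be built into the list, and it does not compare KO with WT. These are matches of letters, and binding of HIF or REV-ERB was not measured here.

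The largest differences among the glycolytic genes were in the transporters, which stand at both ends of the pathway. Slc2a1 encodes GLUT1, the main glucose carrier of many cell types, and its row lies on chromosome 4 at 119108745 to 119137329. Slc2a1 was at 62.9 to 98.5 RPKM in WT with a median of 82.7, and at 85.0 to 146 RPKM in KO with a median of 113. The ranges overlapped, but KO was higher at 12 of 12 time points, and 9 of the 12 KO libraries lay above the highest WT library. The difference was 0.45 ± 0.079 (SE) on the log2 scale, with an adjusted p of 2.76e-04. Slc16a3 encodes MCT4, which exports lactate. Its level was 12.5 to 20.5 RPKM in WT (median 17.2) and 18.6 to 27.8 RPKM in KO (median 23.6), and 10 of the 12 KO libraries exceeded all WT libraries. It was higher in KO by 0.47 ± 0.080 with an adjusted p of 1.94e-04.

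Slc2a3 encodes GLUT3, a glucose carrier of high affinity that is abundant in neurons and embryonic cells. Slc2a3 was the most variable of the glycolytic genes, at 10.7 to 32.8 RPKM in WT (median 19.2) and 20.2 to 35.9 RPKM in KO (median 28.6). The genotypes overlapped widely and KO was higher at 9 of 12 time points, so that the difference of 0.49 ± 0.15 had an adjusted p of 0.0185, and without the WT libraries of 24 h and 52 h, a choice made after seeing the data, 0.051.

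The first steps of the pathway differed less. The hexokinases trap glucose in the cell by phosphorylation. Hk1, the form of most tissues, was at 10.1 to 12.5 RPKM in WT and 11.1 to 14.2 RPKM in KO, with a difference of 0.15 ± 0.038 and an adjusted p of 0.00538. Hk2, the form of muscle and many growing cells, was at 6.19 to 8.46 RPKM in WT and 6.73 to 8.10 RPKM in KO and was not called. Gpi1, which turns glucose phosphate into fructose phosphate, was at 72.8 to 83.2 RPKM in WT and 74.0 to 85.3 RPKM in KO and was not called either. The 95% interval of its difference ran from -0.030 to 0.078, which lies below the difference of every glycolytic gene that was higher in KO. It still overlapped the interval of Hk1, which began at 0.076, and genes were not tested against each other. Gpi1 is expressed at a level between those of Pgam1 and Pgk1, both of which rose.

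Phosphofructokinase, the committed step of glycolysis, has 3 subunit genes, and the call was made for 1 of them. Pfkl, the liver-type subunit, was at 29.0 to 36.6 RPKM in WT (median 33.2) and 36.0 to 44.6 RPKM in KO (median 40.0). KO was above WT at 12 of 12 time points, and only the WT library of 12 h reached the range of KO. The difference was 0.27 ± 0.041 with an adjusted p of 4.54e-05, the smallest among the glycolytic genes. Pfkm, the muscle type, had means of 10.2 RPKM in both genotypes, and Pfkp, the platelet type, 11.3 RPKM in WT and 11.52 RPKM in KO. The 95% intervals of their differences, -0.072 to 0.084 and -0.073 to 0.13, did not reach that of Pfkl, which began at 0.19. A row on the opposite strand, AK192985 at 26.2 RPKM, overlaps Pfkl, and Pitrm1 at 8.14 RPKM overlaps Pfkp. Reads of these pairs could be shared, since the library kit does not mark the strand.

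The PFKFB enzymes make and remove the fructose bisphosphate that activates phosphofructokinase. Pfkfb3, whose product favours its synthesis, was at 6.33 to 8.13 RPKM in WT and 7.62 to 9.93 RPKM in KO, higher by 0.24 ± 0.045 (adjusted p = 4.65e-04). Pfkfb4 was at 1.22 to 1.67 RPKM in WT and 1.04 to 1.60 RPKM in KO and was not called.

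The enzymes from aldolase to lactate dehydrogenase include the 7 most abundant members, and the broadly expressed isoenzyme of each step was higher in KO. Aldoa was at 224 to 269 RPKM in WT (median 242) and 265 to 320.3 RPKM in KO (median 284), and 10 KO libraries lay above all WT libraries. Gapdh, which oxidises glyceraldehyde phosphate and often serves as a reference gene in quantitative PCR, was the most abundant member, at 294 to 382 RPKM in WT (median 324) and 356 to 425 RPKM in KO (median 371). Its difference was 0.22 ± 0.044 with an adjusted p of 6.87e-04 and was seen at 11 of 12 time points. Pkm, the pyruvate kinase of most tissues, was at 202 to 264 RPKM in WT (median 219) and 235 to 282 RPKM in KO (median 268), with a difference of 0.25 ± 0.044 and an adjusted p of 2.31e-04.

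Ldha, which reduces pyruvate to lactate, was at 149 to 213 RPKM in WT (median 177) and 196 to 251 RPKM in KO (median 214). The WT libraries of 20 h and 56 h reached the range of KO and the other 10 lay below it. The difference was 0.30 ± 0.053 with an adjusted p of 2.30e-04. Pdk1, a kinase that shuts off pyruvate dehydrogenase and so keeps pyruvate from the mitochondria, was at 5.12 to 8.24 RPKM in WT (median 6.58) and 7.14 to 9.91 RPKM in KO (median 8.20). It was higher by 0.33 ± 0.063 with an adjusted p of 5.70e-04.

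The remaining enzymes of this stretch moved by similar amounts. Mean levels in WT and KO were 136 and 165 RPKM for Tpi1, which interconverts the triose phosphates. They were 90.03 and 113 RPKM for Pgk1, which makes ATP. They were 46.5 and 53.6 RPKM for Pgam1, which shifts the phosphate of phosphoglycerate, and 152 and 184 RPKM for Eno1, the enolase of most tissues. Pgk1 had the largest difference of the 4, 0.33 ± 0.066, and Pgam1 the smallest, 0.20 ± 0.038. The adjusted p-values lay between 1.28e-04 for Tpi1 and 6.86e-04 for Pgk1, and KO was above WT at 11 or 12 of the 12 time points in all 4. Genes such as Gapdh, Pkm, Ldha, Eno1, Pgam1, Tpi1 and Pgk1 have many near-identical processed copies in the mouse genome, and reads that map to several places are lost under the mapping quality filter, so their levels are uncertain while the comparison between genotypes is made on the same rows.

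The 2 members that fell in KO are both isoenzymes known from the nervous system, whereas Slc2a3, also abundant in neurons, was higher by 0.49. Aldoc, the brain-type aldolase, was at 5.02 to 9.39 RPKM in WT (median 6.23) and 3.42 to 6.49 RPKM in KO (median 5.37). The ranges overlapped widely and KO was lower at 10 of 12 time points, with a difference of -0.30 ± 0.098 and an adjusted p of 0.0271. Eno2, the neuron-specific enolase, was at 3.59 to 5.71 RPKM in WT (median 4.71) and 3.54 to 4.99 RPKM in KO (median 4.08), lower by 0.18 ± 0.064 with an adjusted p of 0.0414. The call for Eno2 was near the threshold and was lost when any of 14 of the 24 libraries was left out. Both genes thus moved against the broadly expressed isoenzymes of the same steps, Aldoa and Eno1.

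Neuronal markers were also at lower levels in KO. All 5 of those examined, Tubb3, Map2, Stmn2, Elavl3 and Syp, had negative differences, with a median of -0.99 on the log2 scale, and 2 of the 5, Elavl3 and Syp, were called lower. Their summed level ran from 3.89 to 36.0 RPKM in WT and from 2.35 to 11.9 RPKM in KO. Over the 24 libraries, as deviations from the genotype mean, Aldoc and Eno2 were set against the mean of these markers. For Aldoc Pearson's r was 0.17 (permutation p = 0.442) and Spearman's rho 0.088 (p = 0.694), and for Eno2 they were 0.37 (p = 0.109) and 0.23 (p = 0.317), with 2 relations examined and 100000 permutations within genotypes. Adjusted for both relations, the p-values of r were 0.442 and 0.217 and those of rho 0.694 and 0.633. Leaving out the 2 libraries farthest from the median of the markers gave r of -0.17 and 0.098. Within WT r was 0.62 for Aldoc and 0.69 for Eno2, and within KO it was -0.64 and -0.44. The part of neuronal cells in the level of these 2 genes was not tested.

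Among the other hypoxia-responsive genes, those for the modification of collagen separated the genotypes best. P4ha1 and P4ha2 encode the catalytic subunits of the enzyme that hydroxylates prolines of collagen. P4ha1, on chromosome 10 at 59323296 to 59373304, was at 31.6 to 36.6 RPKM in WT (median 35.3) and 37.95 to 42.2 RPKM in KO (median 40.3), so the ranges did not overlap. Its difference was small, 0.19 ± 0.025, but the spread within each genotype was smaller, with an SD of 0.053 in WT and 0.052 in KO on the log2 scale, and the adjusted p was 8.95e-06. P4ha2 was at 22.2 to 28.9 RPKM in WT (median 24.4) and 27.7 to 34.7 RPKM in KO (median 31.9), with only the WT library of 16 h inside the range of KO. Its difference was 0.32 ± 0.044 with an adjusted p of 1.57e-05. Ero1l, an oxidase that forms disulphide bonds of secreted proteins, was at 11.6 to 16.7 RPKM in WT (median 12.5) and 14.2 to 16.9 RPKM in KO (median 15.5), higher by 0.21 ± 0.061 (adjusted p = 0.0131).

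Secreted signals and acid-base balance followed the same direction. Vegfa, the main growth factor of blood vessels, was at 13.5 to 22.4 RPKM in WT (median 16.4) and 18.8 to 23.8 RPKM in KO (median 19.7). The WT libraries of 48 h and 56 h reached the range of KO, and the difference was 0.31 ± 0.069 with an adjusted p of 0.00199. Adm, a peptide that widens blood vessels, was at 23.6 to 30.9 RPKM in WT (median 26.0) and 28.6 to 36.6 RPKM in KO (median 33.0), higher at 12 of 12 time points by 0.30 ± 0.048 (adjusted p = 1.14e-04). Car9 encodes a carbonic anhydrase at the cell surface. Car9 was among the least expressed members, at 2.14 to 4.81 RPKM in WT and 3.63 to 5.67 RPKM in KO with 82 to 202 fragments per library, and its difference of 0.38 ± 0.11 had an adjusted p of 0.0114.

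The genes of mitochondria, energy and growth control were also higher. Bnip3, which drives the removal of mitochondria, was at 33.2 to 49.2 RPKM in WT (median 39.9) and 44.0 to 61.2 RPKM in KO (median 49.6), higher by 0.34 ± 0.058 (adjusted p = 1.84e-04). Ak4, an adenylate kinase of the mitochondrial matrix, had the largest difference of the 16 genes. It was at 2.71 to 4.17 RPKM in WT (median 3.77) and 3.88 to 5.48 RPKM in KO (median 4.88), and 11 of the 12 KO libraries lay above every WT library. The difference was 0.40 ± 0.063 with an adjusted p of 7.69e-05. Ddit4, an inhibitor of mTORC1, and Ndrg1, a gene induced by stress and differentiation, were closest to the threshold. Ddit4 was at 27.0 to 38.4 RPKM in WT and 29.9 to 40.8 RPKM in KO (0.17 ± 0.058, adjusted p = 0.0329), and Ndrg1 at 45.5 to 59.3 RPKM and 49.4 to 65.1 RPKM (0.14 ± 0.048, adjusted p = 0.0394). Both calls were lost with quantile normalization, with adjusted p of 0.0657 and 0.104, and when any of 9 or 11 of the 24 libraries was left out.

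The HIF alpha subunits and their prolyl hydroxylases were represented by 4 members, of which Epas1 is given further below. Egln1, the main prolyl hydroxylase of HIF, was at 18.1 to 21.9 RPKM in WT and 20.8 to 24.9 RPKM in KO, with a difference of 0.14 ± 0.033 (adjusted p = 0.00298). Egln3, a prolyl hydroxylase that HIF itself induces, was at 13.6 to 22.2 RPKM in WT and 18.7 to 24.7 RPKM in KO, higher by 0.27 ± 0.064 (adjusted p = 0.00308). Hif1a, the alpha subunit of HIF found in most cells, was at 25.7 to 33.8 RPKM in WT (median 29.7) and 30.5 to 34.9 RPKM in KO (median 32.6). KO was higher at 12 of 12 time points by 0.14 ± 0.046 with an adjusted p of 0.0262, which quantile normalization moved to 0.126. HIF alpha subunits are controlled mainly by protein stability, and protein was not measured. An opposite-strand row at 7.82 RPKM, AK048798, overlaps Hif1a.

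The genes Epas1, Ankrd37 and Kdm3a were not called. Epas1, the alpha subunit of HIF known from endothelium, was at 5.70 to 10.9 RPKM in WT and 6.18 to 10.4 RPKM in KO, and the 95% interval of its difference ran from -0.20 to 0.16. Ankrd37, whose reads may be shared with the overlapping row Ufsp2 at 8.41 RPKM, had an interval from -0.24 to 0.15. Kdm3a, a histone demethylase that HIF induces, had one from -0.17 to 0.046. The upper limit of Kdm3a lies below the difference of every member that was higher in KO, whereas those of Epas1 and Ankrd37 reach the smaller ones. The interval of Kdm3a still overlapped that of Ndrg1, which began at 0.042, and genes were not tested against each other.

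**Figure D3:**
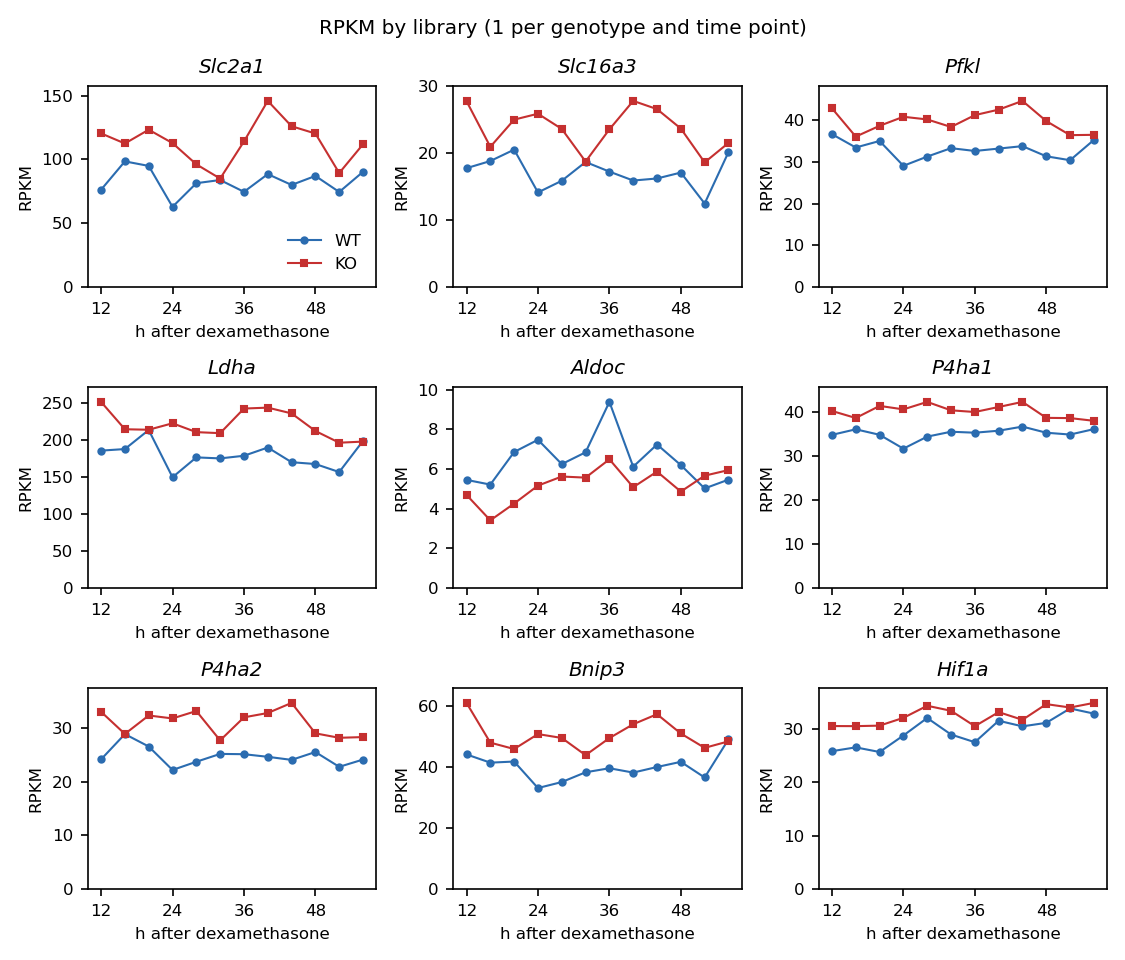
RPKM of 9 members by hours after dexamethasone, with 1 point per library, WT in blue and KO in red, each panel with its own axis from 0. P4ha1 was separated at all time points, Aldoc ran the other way, and Hif1a climbed in WT.

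No 24 h rhythm was called for these genes. In a model with a linear trend and a cosine and a sine of 24 h period, 0 of the 38 genes had a rhythm at an adjusted p under 0.05 by limma, in WT or in KO, and 0 differed between them. Few genes did in the whole table, 7 in WT (0.0463%) and 11 in KO (0.0728%), and the rhythms of 0 genes differed (729, or 4.82%, at an unadjusted p under 0.05). At an unadjusted p under 0.05, 2 members passed in WT, Gpi1 (0.032) and Gapdh (0.0487), 2 in KO, Slc2a1 (0.00561) and Hk1 (0.0462), and 1 for the difference between the genotypes, Gpi1 (0.0339). The shares of all genes at that level were 7.57% in WT and 7.92% in KO. With 1 library per time point a weak rhythm could not be detected.

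Drift over the 44 h was rare as well. A linear trend at an adjusted p under 0.05 was found for 1 member in WT, compared with 2.38% of all genes (1.11% rising and 1.26% falling), and for 0 in KO, compared with 2.38%. The member was Hif1a, which rose in WT by 0.16 ± 0.037 on the log2 scale per 24 h (adjusted p = 0.0255). It was at 25.7 to 26.6 RPKM in the libraries of 12, 16 and 20 h and at 31.1 to 33.8 RPKM in those of 48, 52 and 56 h. The slope in KO was 0.064 with an adjusted p of 0.412, and the trends differed between the genotypes for 0 members and for 0 of all genes (964, or 6.38%, at an unadjusted p under 0.05). The call in WT was lost without the 12 h time point and when late time points were compared with early ones. At an unadjusted p under 0.05, the trend passed for 2 members in WT and 4 in KO, where the shares of all genes were 15.2% and 16.7%.

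The members also varied together from library to library. After the mean of its genotype was taken from each library, the mean pairwise Pearson correlation over the 24 libraries was 0.45 among the 22 glycolytic genes, 0.21 among the 16 other hypoxia-responsive genes and 0.28 between the groups. It was 0.025 over all genes tested and 0.065 over genes with a mean of at least 10 RPKM. These correlations are descriptions, since the genes share libraries and their scaling. The lactate exporter Slc16a3 followed the mean of the other 37 members most closely (r = 0.90), before Pgk1 (0.89), Aldoa (0.87) and Bnip3 (0.85). Hif1a ran against it (-0.38), and Adm (-0.14), Epas1 (-0.094) and Aldoc (-0.070) did not follow it.

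In 9 of the 24 libraries at least 28 of the 38 members lay on 1 side of the mean of the genotype. In WT, 33 members lay below the mean at 24 h, 33 at 28 h and 36 at 52 h, while 31 lay above it at 16 h and 34 at 56 h. In KO, 30 lay above the mean at 40 h and 34 at 44 h, while 30 lay below it at 32 h and 28 at 52 h. With the WT libraries of 24 h and 52 h left out, a choice made after seeing the data, 14 of the glycolytic genes and 11 of the other genes were still higher in KO.

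**Figure D4:**
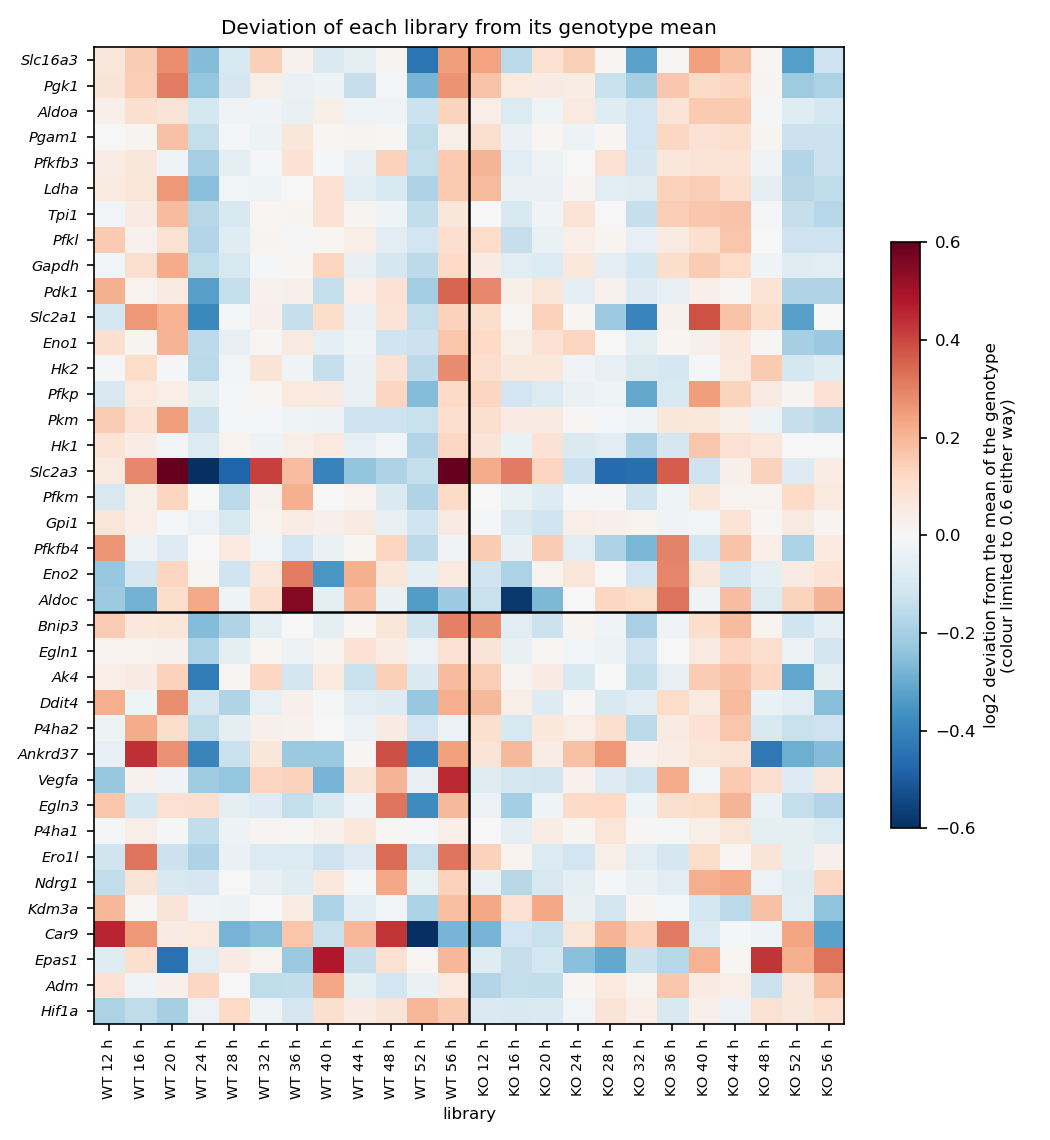
Deviation of each of the 24 libraries from the mean of its genotype on the log2(RPKM + 0.1) scale, with 1 line per gene, ordered within each group by correlation with the mean of the other members, and 1 column per library. The WT columns of 24 h and 52 h are mostly blue and that of 56 h mostly red, while Hif1a at the bottom shows another order.

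Markers of other cell types were set beside this. All 4 epithelial markers, Epcam, Cdh1, Krt8 and Krt18, were higher in KO, with a summed level of 145 to 277 RPKM in WT and 257 to 429 RPKM in KO. Over the 24 libraries the mean deviation of these 4 markers correlated with that of the 38 members with r = 0.79, being 0.74 within WT and 0.87 within KO, and this was the highest value among the 12 marker lists with tested genes, given as a description. The next was that of the 4 proliferation markers (r = 0.54, being 0.74 within WT and 0.21 within KO). Of these 0 were called, although their 4 differences were positive. Of the 6 markers of striated and heart muscle 5 were higher and Tnnt2 was lower, with a summed level of 43.6 to 79.2 RPKM in WT and 53.3 to 107 RPKM in KO and r = -0.21. Of the 5 markers of smooth muscle and mesenchyme 3 were higher, Tagln, Myh11 and Col1a1, and Pdgfra was lower, with r = 0.095. The part of these cell types in the levels of the members was not tested.

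Of 13 further components of the HIF pathway, which include the partner subunit Arnt, the ubiquitin ligase subunit Vhl and the coactivators, 0 were higher in KO and 3 were lower, with a median of -0.072. Arnt2, the form of ARNT known from neurons, was lower by 0.56, the inhibitory alpha subunit Hif3a by 0.23 and the coactivator Crebbp by 0.17 on the log2 scale. Arnt and Vhl were not called, with means of 12.7 and 12.4 RPKM for Arnt and 10.1 and 9.60 RPKM for Vhl. Of 29 other genes known as HIF targets 13 were higher and 2 were lower, with a median of 0.11. Beside both lists, 11.2% of all genes tested were higher in KO and 14.7% lower. Among those named by size of the difference, Pgf, a growth factor related to VEGF, rose from 3.68 to 5.53 RPKM, Car12, a carbonic anhydrase, from 3.50 to 5.12 RPKM and Tmem45a from 8.31 to 11.7 RPKM.

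The rest of glucose metabolism was mixed. Of 33 other tested genes for isoenzymes and steps of glycolysis and pyruvate use, 7 were higher and 6 were lower, with a median of 0.029. The shares over all genes tested were 11.2% higher and 14.7% lower. Among those named by size of the difference, Fbp2, the muscle fructose bisphosphatase, fell from 1.56 to 0.934 RPKM, whereas Fbp1, its liver counterpart, rose from a low level of 0.184 to 0.352 RPKM.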

How the data were processed

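RNA-seq was done on 12 WT and 12 KO libraries, prepared with poly(A) selection and a TruSeq RNA v2 kit and read as 101-bp pairs. Per the labels and the submitters' processing notes, the authors made the values with bcl2fastq, Trimmomatic 0.36, STAR 2.5.4b on GRCm38, SAMtools and HOMER, discarded alignments of mapping quality below 10 and counted reads over exons of UCSC canonical genes. The deposited values are RPKM for 33079 rows. The exonic lengths, in bases, and the library totals in the table gave fragments per gene, which were used only to describe depth. How strand was used in counting is not given in the sources used here.

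Genes with a mean above 0.5 RPM in either genotype (15112) were compared on the log2(RPKM + 0.1) scale by limma 3.58.1 (R 4.3.3), with Benjamini-Hochberg adjustment over all of them and a threshold of 0.05. Log2 differences understate changes of low genes. KO was compared with WT over the 12 libraries of each. Trend and rhythm came from 1 model with a slope and 24 h cosine and sine terms in each genotype. RPKM are not counts, so no count test was used. Each fit was first tested on simulated data that held known changes. Samples were grouped by their labels. Promoters came from RefSeq tables for GRCm38.p6. Python 3.11.15, numpy 2.4.6, pandas 2.3.3 and matplotlib 3.10.9 were used for the rest.

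The members and all gene lists were chosen with earlier results of these data known. Named genes were all members, with full values for those past a threshold and the 4 most abundant, and, per further list, the 3 genes with the largest difference among those past it. Of these, 1 gene is not reported here, although it is counted in its list. Arnt, Vhl, Pou5f1, Nanog and marker genes named beside them were chosen after their values were seen. Promoters were printed for the 5 members past the threshold with the largest difference and an entry. The alternatives were the pseudocount (1 or 0.01), the filter (a mean of 1 RPKM, or none), quantile normalization, the time point as a block, trend and rhythm terms as covariates, an intensity-dependent prior, leaving out each library, other forms of the time term and periods of 22 and 26 h.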

Additional observations from a re-analysis of the deposited data

How the results depend on the processing

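Of the 30 members called higher or lower, 25 kept their call under all 33 alternatives tried for the comparison of KO and WT, and no member changed direction among those called. The exceptions were Slc2a3, Eno2, Ndrg1, Ddit4 and Hif1a. Without the filter on low values 1 glycolytic gene was lower in KO, and the same count, 1, was left without the WT libraries of 24 h and 52 h, since the call for Eno2 was lost. Other hypoxia-responsive genes higher in KO numbered 10 with quantile normalization, 12 without a filter and 11 without these WT libraries. When 1 library was left out at a time, glycolytic genes higher in KO stayed at 15, those lower ran from 1 to 2, hypoxia-responsive genes higher from 11 to 13, and over all genes those higher from 1454 to 1888 and those lower from 1920 to 2274. With quantile normalization 1 member had a trend in KO. The number of members with a trend in WT fell to 0 without the 12 h time point and with late minus early time points. The cause of these shifts was not tested.

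With the time point as a replicate block, 15 glycolytic genes were higher, 2 lower, and 13 other hypoxia-responsive genes higher, as without it, and over all genes 1825 were higher and 2387 lower. Deviations of libraries of the same time point correlated with a mean r of 0.214 (range -0.226 to 0.418, over 0.1 in 9 of 12 pairs), against -0.0195 for other pairs, and 5 WT and 6 KO libraries correlated best with their own time point. Since this did not hold for every pair and no source says that same-time libraries share a culture, the fit without the block is given. Counts of time points at which KO was higher compare libraries of equal time and are descriptions. The depth was sufficient for the members, of which Pfkfb4 had the fewest fragments. The number of libraries, 1 per time point, limits statements on rhythm and on single times.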

Other observations

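Several of the further genes known as HIF targets were abundant and higher in KO at 12 of 12 time points, chosen here after their values were seen. KO was above WT at 12 of 12 time points for 2.65% of all genes tested. Abundant genes were more often higher in KO, 31.1% of those with a mean of at least 50 RPKM and 39.9% of those with at least 100 RPKM. Lox, which cross-links collagen, averaged 233 RPKM in WT, against 299 RPKM in KO (limma, adjusted p = 2.03e-04). Fam162a, a small mitochondrial protein, had means of 55.6 and 76.1 RPKM (adjusted p = 9.79e-05), and Mif, a cytokine, 143 and 177 RPKM (adjusted p = 1.54e-04). Stc1, a secreted glycoprotein, and Kdm4c, a histone demethylase, were the 2 of this list that were lower. Genes for pyruvate dehydrogenase, its regulators and pyruvate import that were tested beside Pdk1 were grouped here after their values were seen. Of these, Pdk2 (9.36 and 8.25 RPKM), Pdk4 (8.85 and 7.18 RPKM) and the opposing phosphatase Pdp1 (2.57 and 2.00 RPKM) were lower in KO by limma, with adjusted p of 6.09e-04, 9.93e-04 and 1.32e-06. Pdha1 (25.8 and 26.9 RPKM, adjusted p = 0.0423) and Dlat (7.16 and 7.66 RPKM, adjusted p = 0.0183), which encode parts of the enzyme itself, were higher, and Pdk3, Pdhb, Dld, Mpc1 and Mpc2 were not called. Over all genes tested, 14.7% were lower and 11.2% higher in KO.

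Of the marker lists not yet given, 1 of 4 endothelial markers was higher (Pecam1), 1 of 4 chondrocyte markers (Sox9) and 1 of 2 adipocyte markers tested (Lpl), and 0 of 3 leukocyte, 0 of 4 endoderm and 0 of 2 pluripotency markers tested were called. Of 4 immediate-early genes, Jun was higher and Fos and Egr1 were lower. Of 4 erythroid markers 0 passed the filter. The summed level of the endoderm markers, Afp, Alb, Ttr and Apoa1, varied from 76.9 to 1014 RPKM in WT and from 80.5 to 1014 RPKM in KO, the widest range of these lists.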
